A study of Mus musculus with 3 samples.

Results

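The genes described here encode 2 of the pacemaker channels, Hcn2 and Hcn4, and 7 subunits of voltage-gated calcium channels, Cacna1c, Cacna1d, Cacna1g, Cacna1h, Cacna2d1, Cacna2d2 and Cacnb2. They were chosen by symbol from the gene lists of the count matrices and are 9 of 27998 genes. All 9 had UMIs (unique molecular identifiers, one for each captured RNA molecule). Their levels were read across gated cell classes and across subtypes of the cardiomyocytes, the muscle cells of the heart.

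Single-cell RNA was measured with the 10x Genomics kit in 3 libraries, 1 for each group, from ICR mice of genotype HCN4H2BGFP at postnatal day 2. This knock-in genotype, which all 3 groups share, places a histone-bound green fluorescent protein (GFP) under the control of Hcn4. Cells sorted as GFP-positive made up the first library and cells sorted as GFP-negative the second, both from the region of the sinoatrial node (SAN), where the heartbeat starts. The unsorted library carries RA in its title, whereas its tissue label names the sinoatrial node region. It is called the RA library here, and the design text speaks of surrounding atrial cells. The labels do not give the number of animals or whether they were pooled. With 1 library per group there is no replicate check: intervals cover counting error, groups are compared by size, and no p-value is given.

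HCN channels open when the membrane is hyperpolarised, bind cyclic AMP, and carry the inward "funny" current that helps to start each heartbeat. Calcium channels have a pore subunit, which sets the type of current, and auxiliary subunits, which control its delivery to the membrane and its gating. L-type pores carry the calcium that triggers contraction, and in sinoatrial node cells, where sodium current is small, also the upstroke of the action potential. T-type pores open at more negative voltages, during the slow depolarisation between beats.

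In the order GFP-positive, GFP-negative, RA, the matrices had 3346, 3276 and 1450 barcodes and 50416748, 38204709 and 19975326 UMIs. Cells below 500 genes or above 50% mitochondrial UMIs were dropped, which left 3289, 3032 and 1289. Libraries shared 8 to 19 barcodes in each pairing. Cells were gated by summed marker UMIs, which gave 166 GFP-positive, 59 GFP-negative and 70 RA cardiomyocytes, at medians of 19214.5, 13568 and 10242 UMIs per cell. All 10 cardiomyocyte markers were detected in each, and their summed levels were 56759, 67389.9 and 70711 CPM (UMIs of the gene for each 1000000 UMIs of the summed cells). Erythroid markers summed to 49.3, 3126 and 4670.1 CPM in these cardiomyocytes, fibroblast markers to 329, 1146 and 814 CPM, and endothelial markers to 470.5, 42.9 and 68.4 CPM. Airway markers summed to 368, 0 and 0 CPM. Neuron markers, a list that includes Dbh, summed to 293, 77.2 and 49.0 CPM, though 0 neurons were gated in the GFP-positive library. Whether these RNAs came from other cells, and their part in the results below, was not tested.

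One of the 59 gated GFP-negative cardiomyocytes had 131 UMIs of Myog, a skeletal muscle regulator, and 1 UMI of Myl7, an atrial myosin light chain, so it went against its gate. Of the channel genes it held 4 UMIs of Cacna2d1 and no other. Values are given with this cell, and without it where that changed a count.

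The stretch upstream of the transcription start is shown for 3 members that carry the results: the reporter-linked pacemaker gene, the L-type pore with the clearest difference between cardiomyocyte subtypes, and the auxiliary subunit found in most cell classes. Each line gives the 250 bases before the start, on the strand of the gene, from RefSeq on GRCm38.p6; the count data were made on mm9, and no position was carried over. Capitals mark GC boxes (GGGCGG on either strand, overlaps counted), the binding letters of Sp-family factors.
Hcn4, chr9:58822699-58822948, plus strand: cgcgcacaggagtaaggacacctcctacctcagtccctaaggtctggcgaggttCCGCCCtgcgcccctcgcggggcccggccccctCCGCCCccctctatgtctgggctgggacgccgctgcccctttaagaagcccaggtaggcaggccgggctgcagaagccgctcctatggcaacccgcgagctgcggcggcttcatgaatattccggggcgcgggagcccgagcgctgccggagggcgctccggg
Cacna1d, chr14:30353487-30353736, minus strand, 1 of 2 starts listed: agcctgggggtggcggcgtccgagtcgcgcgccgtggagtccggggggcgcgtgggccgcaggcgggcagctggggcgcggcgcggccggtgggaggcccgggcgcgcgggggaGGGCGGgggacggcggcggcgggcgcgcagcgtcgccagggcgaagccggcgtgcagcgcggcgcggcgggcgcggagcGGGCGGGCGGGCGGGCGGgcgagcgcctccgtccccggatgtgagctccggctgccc
Cacna2d1, chr5:15934441-15934690, plus strand: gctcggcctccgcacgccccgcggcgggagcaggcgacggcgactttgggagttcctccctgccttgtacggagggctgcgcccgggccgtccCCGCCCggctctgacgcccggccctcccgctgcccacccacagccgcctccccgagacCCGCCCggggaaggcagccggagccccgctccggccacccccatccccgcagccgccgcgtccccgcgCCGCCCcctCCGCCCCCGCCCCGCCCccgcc
These windows were 71.2%, 86.4% and 82.4% G or C, against a median of 52.4% over 32851 promoter windows. They held 2, 5 and 6 GC boxes, and 32.7% of all windows held at least 1. Promoters were listed for 7 of the 9 members, in 11 windows; Cacna1g and Cacna1h had none listed. The other windows ran from 39.6% to 82.8% G or C: the other Cacna1d start was at 39.6% with 0 GC boxes, 2 of 3 Cacna1c windows were at 50.4% and 51.6%, and 1 of 2 Cacnb2 windows was at 46.0%. The T-box half-site GGTGTG was in none of the 11 windows and in 16.3% of all windows. The GATA letters GATAA stood in 1 Cacna1d window and in 22.6% of all windows, and the NKX half-site AAGTG stood 3 times in 1 Cacnb2 window and in 40.7% of all windows, each searched on both strands. These matches describe the letters and say nothing of binding.

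In the GFP-positive library, 8 of the 9 genes were at least 2-fold higher in cardiomyocytes than in the 2450 endothelial cells, the vessel-lining cells that formed its largest class. Across all 14723 genes measured in that comparison, 16.9% were at least 2-fold higher and 27.4% at least 2-fold lower. The median log2 ratio was 5.42 over the 9 members and -0.27 over all measured genes. A gene counted as measured with at least 10 UMIs in both sums together, and ratios used for counts had 0.5 UMIs added to each sum. Cacna1d had 7 UMIs in the endothelial cells and reached that minimum only through the cardiomyocytes. Cacna1d was 204-fold higher in cardiomyocytes (95% interval 96.6 to 518), Cacna2d2 136-fold (106 to 177) and Cacna1c 72.4-fold (43.3 to 129). Hcn4 was 4.34-fold higher (2.64 to 6.96), while Hcn2 was at 0.301 and 0.286 CPM.

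**Figure D1:**
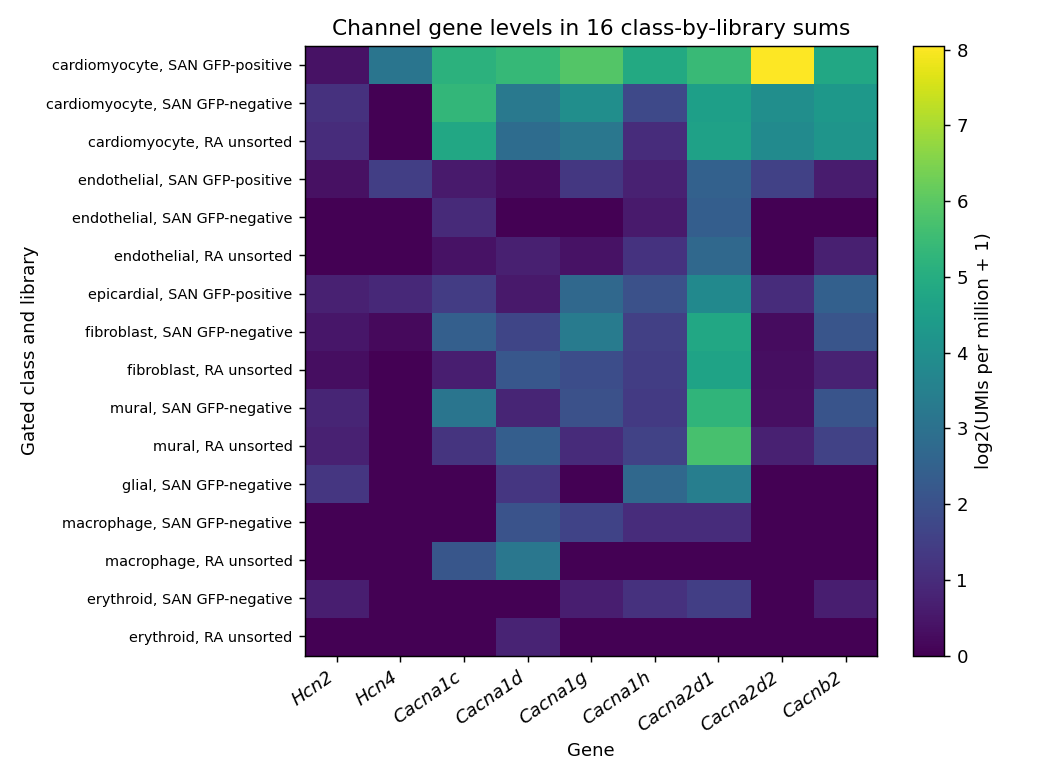
Levels of the 9 genes as log2(CPM + 1) on a colour scale, with 1 row for each of the 16 class-by-library sums of at least 50 cells. Sums with 0 UMIs take the lowest colour, and no intervals are drawn. The cardiomyocyte rows lead for 7 of the genes, Cacna2d1 is also high in mural cells and fibroblasts, and Hcn2 stays near its floor throughout.

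The same pattern held over the 16 class-by-library sums of at least 50 cells. A cardiomyocyte sum had the highest level for each gene except Hcn2, at most 1.41 CPM in any of the 16, and Cacna2d1, highest in RA mural cells (smooth muscle and pericytes). That Cacna2d1 interval, 43.4 to 60.0 CPM, overlapped the one of GFP-positive cardiomyocytes, 36.0 to 50.3 CPM, which came next. For Hcn4, Cacna1d, Cacna1g, Cacna1h and Cacna2d2 the GFP-positive cardiomyocytes came first and their interval did not overlap that of the next sum; for Hcn4 the interval of the 75 glial cells, with 0 UMIs, reached 5.21 CPM, just inside it. For Cacna1c and Cacnb2 the 3 cardiomyocyte sums came first, their intervals overlapped from each to the next, and the lowest of them did not overlap the next sum.

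Hcn4 (ENSMUSG00000032338), the main pacemaker channel gene of the sinoatrial node, was at 7.82 CPM in GFP-positive cardiomyocytes (5.11 to 11.5, 26 UMIs). It had 0 UMIs in the GFP-negative and RA cardiomyocytes, where the exact intervals reach 4.52 and 3.77 CPM. The exact 95% interval of the ratio, which has no upper end, starts at 1.61 against GFP-negative and 1.93 against RA cardiomyocytes, so a difference below 2-fold lies within it. Against a floor of 3 UMIs, less strict than the interval, Hcn4 was at least 2.13-fold and 2.55-fold higher. The sort selects on a reporter driven from this gene, so that difference also reads the sort. UMIs of the GFP feature itself were at 129.9 CPM in GFP-positive cardiomyocytes, in 66.9% of the cells, and at 0 in the cardiomyocytes of the other libraries. Hcn4 UMIs were in 21 of the 166 cells, a share of 12.7%, so most GFP-positive cardiomyocytes had none at this depth.

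Hcn2 (ENSMUSG00000020331), a second HCN channel known from heart and brain, had 1 UMI in the cardiomyocytes of each library, 0.301 GFP-positive, 1.23 GFP-negative and 1.02 RA CPM, and no ratio was formed.

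The L-type pores differed from each other. Cacna1c (ENSMUSG00000051331), the main L-type pore of heart muscle, was at 35.2 CPM in GFP-positive cardiomyocytes (29.1 to 42.2), 39.2 GFP-negative (26.8 to 55.4) and 27.6 RA (18.2 to 40.1). All these intervals overlapped, and the ratios of GFP-positive cells were 1.28 to RA (0.834 to 2.02) and 0.897 to GFP-negative (0.602 to 1.37). Cacna1d (ENSMUSG00000015968), the L-type pore that opens at more negative voltages and is needed for normal pacemaking in mice, was at 40.9 CPM in GFP-positive cardiomyocytes (34.3 to 48.4). It was at 8.58 CPM in the GFP-negative cells (3.45 to 17.7, 7 UMIs) and 6.13 CPM in the RA cells (2.25 to 13.3, 6 UMIs). The GFP-positive level was 4.76-fold (2.25 to 12.1) and 6.67-fold (2.99 to 18.5) higher.

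Both T-type pores were higher in the GFP-positive cardiomyocytes. Cacna1g (ENSMUSG00000020866), the T-type pore known for its part in mouse sinoatrial rhythm, was at 58.0 CPM there (50.1 to 66.8), against 14.7 GFP-negative (7.60 to 25.7) and 8.17 RA (3.53 to 16.1). These are ratios of 3.94 (2.21 to 7.77) and 7.10 (3.53 to 16.7). Cacna1h (ENSMUSG00000024112), the other T-type pore of the heart, was at 28.6 CPM (23.1 to 34.9, 95 UMIs). It had 2 UMIs in the GFP-negative and 1 in the RA cardiomyocytes, with ratios of 11.6 (3.14 to 97.6) and 28.0 (4.90 to 1116). The direction was the same for both T-type genes, while the size for Cacna1h rests on the very few UMIs of the other libraries.

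Of the auxiliary subunits, Cacna2d2 differed most. Cacna2d1 and Cacna2d2 encode α2δ subunits, extracellular proteins that raise the number of channels at the membrane. Cacna2d2 (ENSMUSG00000010066) was at 264 CPM in GFP-positive cardiomyocytes (247 to 282, 879 UMIs), 14.7 GFP-negative (7.60 to 25.7, 12 UMIs) and 13.3 RA (7.07 to 22.7, 13 UMIs). The ratios were 18 (10.2 to 34.9) and 19.9 (11.6 to 37.5). Cacna2d1 (ENSMUSG00000040118) was at 42.7 CPM (36.0 to 50.3), 22.1 (13.1 to 34.9) and 23.5 (14.9 to 35.2), with ratios of 1.93 (1.18 to 3.36) and 1.82 (1.16 to 2.96). Cacnb2 (ENSMUSG00000057914), the main cardiac β subunit, which carries the pore to the membrane from inside the cell, was at 27.4 (22 to 33.6), 18.4 (10.3 to 30.3) and 17.4 CPM (10.1 to 27.8), and both ratios, 1.49 and 1.58, had intervals that included 1.

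**Figure D2:**
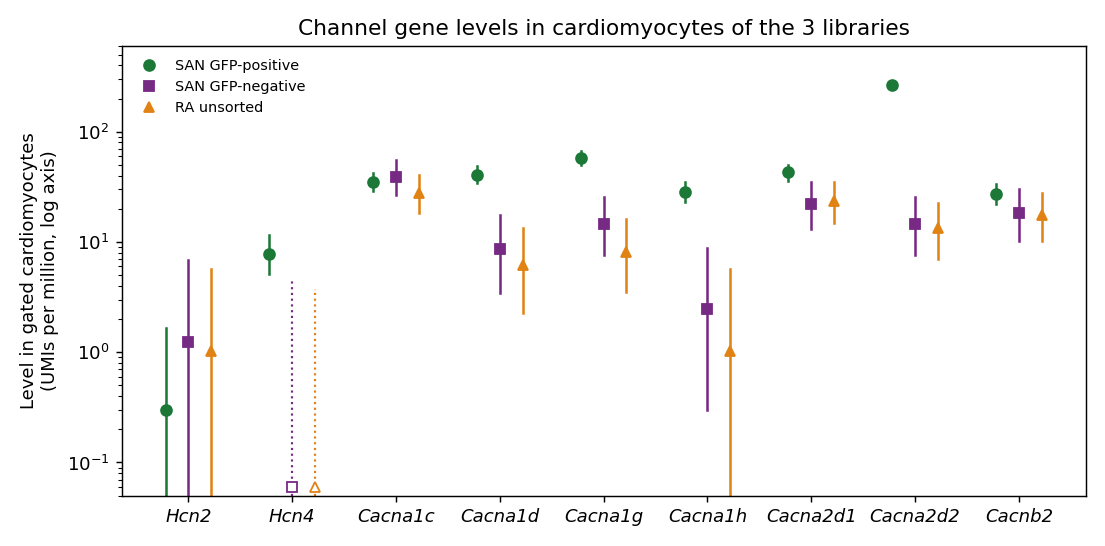
Levels of the 9 genes in gated cardiomyocytes in CPM on a log axis, 1 symbol per library, with exact 95% Poisson intervals. Open symbols with dotted lines mark 0 UMIs and reach the upper bound. The GFP-positive symbol stands clear of the others for Hcn4, Cacna1d, Cacna1g, Cacna1h and Cacna2d2 and overlaps them for Cacna1c and Cacnb2.

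Counted by size, 5 of the 8 members measured were at least 2-fold higher in GFP-positive than in RA cardiomyocytes and 0 were lower, against 17.7% higher and 5.05% lower of the 11224 genes measured. They were Hcn4, Cacna1d, Cacna1g, Cacna1h and Cacna2d2. Against the GFP-negative cardiomyocytes the same 5 of 8 were higher and 0 lower, beside 14.7% and 4.74% of 11177 genes. Without the Myog-positive cell that count was 6, with Cacna2d1 added. The median log2 ratio was 2.69 over the members and 0.14 over all genes in the first comparison, and 2.04 and 0.13 in the second. These comparisons share their GFP-positive cells. Hcn4 drives the reporter used for the sort, so its place in both counts also reads the sort. In RA cells Hcn4, Cacna1d, Cacna1g and Cacna1h had 0, 6, 8 and 1 UMIs. In GFP-negative cells Hcn4, Cacna1d and Cacna1h had 0, 7 and 2 UMIs. These members reached the minimum of 10 UMIs only through the GFP-positive cells. Between GFP-negative and RA cardiomyocytes 0 of the 6 members measured were 2-fold apart, beside 6.22% higher and 4.67% lower of 8772 genes. Their ratios ran from 0.940 for Cacna2d1 (0.478 to 1.82) to 1.80 for Cacna1g (0.677 to 5.08), and the bounds leave room for differences above 2-fold.

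**Figure D3:**
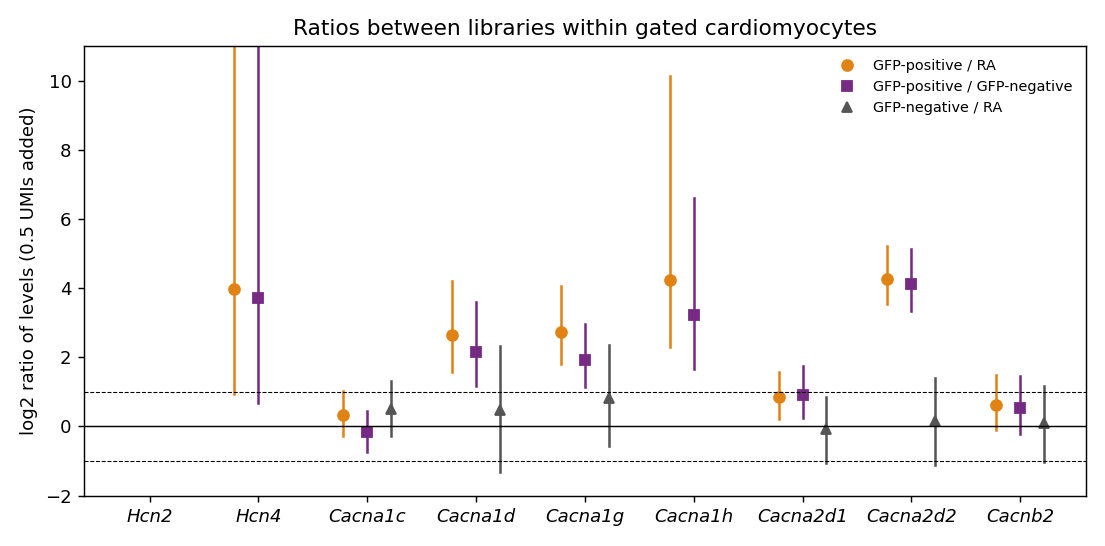
Log2 ratios between libraries within cardiomyocytes, 0.5 UMIs added, with exact 95% intervals of the ratio; dashed lines mark 2-fold. Hcn2, with under 10 UMIs in all, is not drawn, nor are Hcn4 and Cacna1h between GFP-negative and RA cells; the Hcn4 intervals have no upper bound and run off the axis. Cacna1d, Cacna1g, Cacna1h and Cacna2d2 lie above the upper line in both comparisons of GFP-positive cells, and no gene does between GFP-negative and RA cells.

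Depth per cell differed between the libraries, so the share of cells with a UMI was also computed for thinning each cell to 5000 UMIs, which left out 14 GFP-negative and 13 RA cells. Cacna2d2 was then expected in 67.0% of GFP-positive, 7.06% of GFP-negative and 5.16% of RA cardiomyocytes. Before thinning these shares were 93.4%, 15.3% and 15.7%; in fibroblasts, taken as a class that should lack it, 0.255% of GFP-negative and 0.397% of RA cells had a UMI, at medians of 11962 and 16276 UMIs per cell. For Cacna1g the thinned shares were 24.2%, 7.22% and 3.99%, and for Cacna1d 18.9%, 5.34% and 3.06%. For Cacna1c they were 16.4%, 17.0% and 10.2%, so the GFP-positive and GFP-negative cells were again close.

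Single GFP-positive cardiomyocytes had UMIs of a median of 4 of the 9 members and at most 8. The median was 1 in both other libraries. At least 4 members were found in 104 of the 166 cells (62.7%), in 4 of 59 (6.78%) and in 4 of 70 (5.71%). At 5000 UMIs the expected number of members per cell was 1.74, 0.569 and 0.378. Cacna2d2 UMIs per GFP-positive cardiomyocyte ran from 0 over a median of 5 to 28, and no cardiomyocyte of the other libraries had more than 2. All 21 cells with an Hcn4 UMI also had Cacna2d2, 18 had Cacna2d1, 15 Cacna1g, 14 Cacna1h, 13 Cacna1d, 12 Cacnb2 and 4 Cacna1c. Of all 166 cells, 155 had Cacna2d2, 97 Cacna2d1, 99 Cacna1g, 61 Cacna1h, 85 Cacna1d, 65 Cacnb2 and 76 Cacna1c. Depth per cell was not matched in these counts. Both L-type pores were found together in 41 of the 166 cells and both T-type pores in 39.

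**Figure D4:**
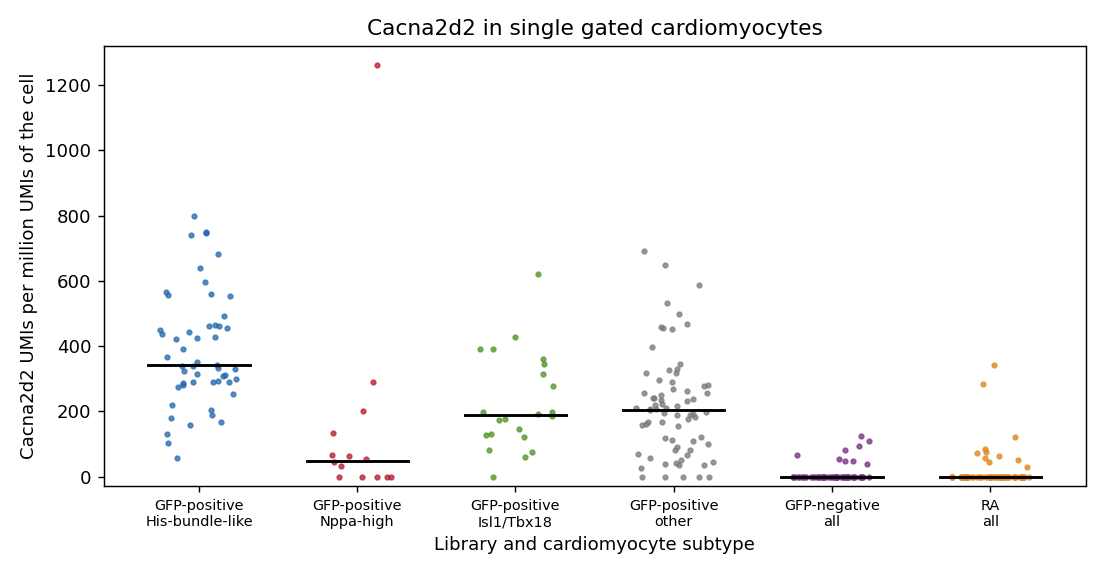
Cacna2d2 level per gated cardiomyocyte in CPM; each dot is a cell and lines are medians, by library and by subtype of the GFP-positive cells. The 6 cells in 2 subtype gates are not drawn. The GFP-positive median is 240.4 CPM and the highest cell 1260.2 CPM, while the medians of the other libraries are 0.

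The GFP-positive cardiomyocytes were then divided by marker UMIs that include none of the 9 genes. His-bundle-like cells (52 cells, 31.3%) carried Pvalb, Myl2, Cntn2, Chit1 and Calca; the His bundle conducts the impulse to the ventricles, and the series title names such cells. Nppa-high cells (14 cells, 8.43%) carried Nppa, the atrial natriuretic peptide gene, at 14603 CPM, against 14.8 in the His-bundle-like, 13.2 in the next and 33.9 CPM in the ungated cells. Cells with Isl1 or Tbx18 (22 cells, 13.3%), 2 transcription factors of the sinoatrial node, formed another group, 72 cells passed none of these gates and 6 passed 2. The gate for Isl1 and Tbx18 needed at least 2 UMIs in their sum and was not scaled to depth. Cells below it could hold such UMIs: Tbx18 was at 6.49 CPM in the ungated cells. Median UMIs per cell were 24680.5 in this group, 17291.5 in His-bundle-like, 22248 in Nppa-high and 18553 in ungated cells. Each group was compared with all other GFP-positive cardiomyocytes. These included the 6 cells in 2 gates, which may have passed the gate of the group compared. Those 6 cells had Nppa at 8153, Pvalb at 753 and Myl2 at 1191 CPM. The cells of each group come from 1 library. Shox2, listed as a sinus-node marker but not used in these gates, was highest in His-bundle-like cells, at 859.8 CPM. It was at 251 CPM in cells with Isl1 or Tbx18, 348 in ungated and 89.6 in Nppa-high cells. Tbx3, Tbx18 and Isl1 of the same list were highest in the cells with Isl1 or Tbx18. The name His-bundle-like rests on the gate markers.

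His-bundle-like cells had more of both L-type pores. Cacna1d was at 69.8 CPM (54.0 to 88.8) against 29.4 in the rest, a ratio of 2.37 (1.67 to 3.37), and was the 1 member of 8 past 2-fold, beside 5.71% higher and 6.02% lower of 10768 genes. Cacna1c was at 52.9 CPM (39.2 to 69.7) against 28.1, a ratio of 1.88 (1.28 to 2.75). Cacna2d2 was at 390.2 CPM (351 to 432) against 214, a ratio of 1.82 (1.59 to 2.09), and all 52 cells had a UMI of it. Hcn4, at 10.6 CPM (5.07 to 19.4, 10 UMIs) against 6.72, had a ratio of 1.57 whose interval, 0.638 to 3.69, included 1. For Cacna1g, Cacna2d1 and Cacnb2 the ratios were 0.834, 0.855 and 0.803, all with intervals that included 1.

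Cells with Isl1 or Tbx18 had the lowest level of Cacna1c among the 4 groups, 17.0 CPM (7.76 to 32.2), though the interval overlapped that of the ungated cells at 29.6 CPM (21.2 to 40.1). It was 2.28-fold below the rest (1.16 to 5.12), and 12.6% of all genes were at least 2-fold lower in the same comparison. Cacna1d was 1.96-fold lower (1.08 to 3.90), at 22.6 CPM. Cacnb2 was at 47.1 CPM against 23.6, a ratio of 2.00 (1.21 to 3.21), and Hcn4 at 15.1 CPM (6.51 to 29.7, 8 UMIs) against 6.44, a ratio of 2.34 whose interval ran from 0.881 to 5.66; 4.70% of all genes were at least 2-fold higher. The GFP feature was at 286 CPM, its highest level among the 4 groups. T-type pores were close to the rest: the Cacna1g ratio was 1.25 (0.849 to 1.80) and that of Cacna1h 1.15 (0.637 to 1.96).

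Nppa-high cells had 4 of 8 members at least 2-fold lower than the rest and 0 higher, beside 13.3% and 7.06% of all genes. Cacna1d had 2 UMIs, at 6.64 CPM against 44.3, with a ratio of the rest to these cells of 6.67 (1.81 to 55.6). Cacna1g was 2.65-fold lower (1.26 to 6.67), at 23.2 CPM, and Cacna1h 2.26-fold lower with an interval, 0.855 to 8.49, that included 1. Hcn4 had 0 UMIs against 26 in the rest; the upper bound of its ratio was 1.53, and the direction turned with 5 UMIs added to each sum. Cacna2d2 was at 149 CPM, but 28 of its 45 UMIs came from 1 of the 14 cells, and its log2 ratio to the rest was -0.87 with that cell and -2.11 without the cell with most UMIs on each side. Cacna1c, Cacna2d1 and Cacnb2 had ratios of 1.15, 1.01 and 0.968. The GFP feature was also lowest in the Nppa-high cells, at 13.3 CPM (3.62 to 34.0), from 4 UMIs in 2 of the 14 cells. It was at 152 CPM in His-bundle-like cells, 286 in cells with Isl1 or Tbx18 and 90.8 in the ungated cells.

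**Figure D5:**
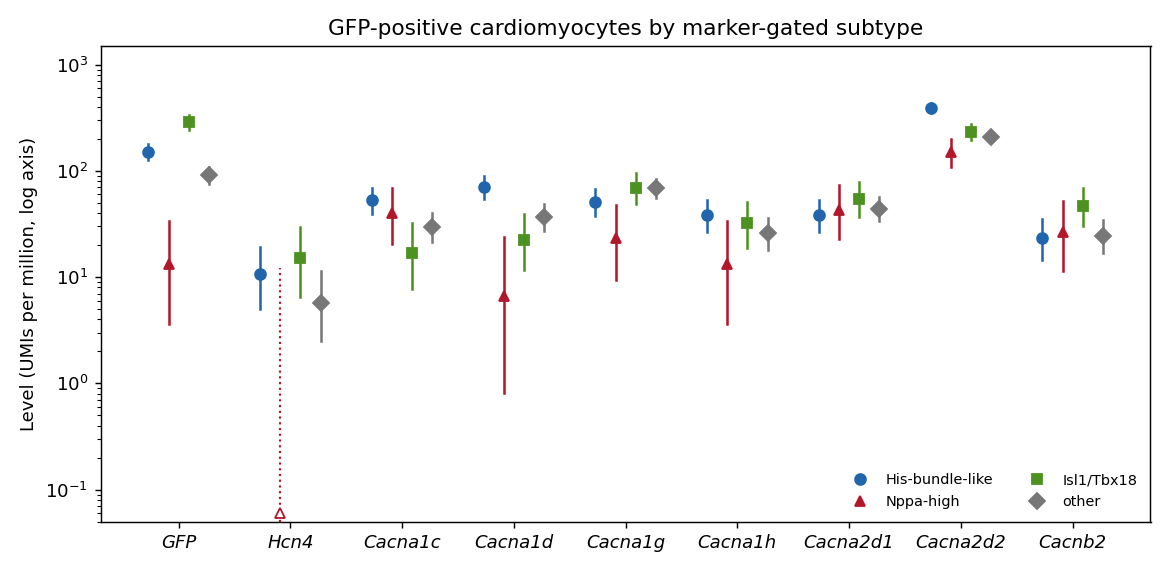
Levels of the GFP feature and of 8 of the 9 genes in CPM on a log axis in the subtypes of GFP-positive cardiomyocytes (Hcn2, with 1 UMI in all, is not drawn), with exact 95% Poisson intervals; open symbols mark 0 UMIs and reach the upper bound. Cacna1d runs from 6.64 CPM in Nppa-high cells to 69.8 CPM in His-bundle-like cells, while Cacna2d1 stays between 38.1 and 54.6 CPM.

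The makeup of the cardiomyocytes differed between libraries: Nppa-high cells formed 71.2% of GFP-negative cardiomyocytes and 82.9% of those in the RA library, and no His-bundle-like cell was gated in either. Levels among Nppa-high cells are therefore given side by side. Cacna2d2 was at 149 CPM in the GFP-positive, 19.0 in the GFP-negative and 14.0 in the RA Nppa-high cells. Without the cell with most Cacna2d2 UMIs in each library it was at 60.9 (35.5 to 97.6), 16.6 (7.61 to 31.6) and 11.8 CPM (5.40 to 22.4). Cacna1c was at 39.8, 53.6 and 31.7 CPM, from 12, 31 and 25 UMIs. Cacna1d was at 6.64, 12.1 and 3.81 CPM, from only 2, 7 and 3 UMIs. Cacna1g was at 23.2, 20.8 and 6.35 CPM, from 7, 12 and 5 UMIs. Cacna1h was at 13.3, 3.46 and 1.27 CPM, from only 4, 2 and 1 UMIs. Cacna2d1 was at 43.2, 19.0 and 26.7 CPM and Cacnb2 at 26.6, 22.5 and 21.6 CPM. Hcn4 had 0 UMIs in the Nppa-high cells of each library. With so few UMIs, the order of the libraries is uncertain for most of these genes.

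Outside cardiomyocytes, low levels are given beside the cardiomyocyte markers in the same cells. In GFP-positive endothelial cells, the 10 cardiomyocyte markers stood at 455 CPM, 0.801% of their level in cardiomyocytes. On the same scale Cacna2d2 stood at 0.735% and Cacna1d at 0.489% of the cardiomyocyte level, below the markers; the part of free RNA in these UMIs was not tested. Hcn4 stood at 23.0% and Cacna2d1 at 11%, above the markers. Hcn4 was at 1.80 CPM in these endothelial cells (1.38 to 2.30, 63 UMIs), in 2.29% of them, or 0.795% after thinning, against 12.7% of the cardiomyocytes, or 3.58% after thinning, at medians of 11552.5 and 19214.5 UMIs per cell. It had 0 UMIs in the endothelial cells of the other libraries, where the exact intervals reach 1.78 in the GFP-negative and 1.14 CPM in the RA cells. The first of these overlaps the interval of the GFP-positive cells. The GFP feature was at 44.0 CPM in the GFP-positive endothelial cells, in 38.3% of them, and at 3.37 and 0.618 CPM in the endothelial cells of the other libraries.

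Within the GFP-positive endothelium, Hcn4 was at 0.978 CPM in 708 endocardial cells, which line the heart chambers, 1.55 in 218 lymphatic cells and 2.26 (1.67 to 3.0) in the other 1504. Cacna1g was highest in the endocardial cells, at 3.03 CPM (2.06 to 4.30, 31 UMIs) against 0.800 in the other cells (0.466 to 1.28). Cacna2d1 was highest in lymphatic cells, at 9.30 CPM (6.27 to 13.3) against 3.23 (2.22 to 4.53) in endocardial cells. Compared with RA endothelial cells, with 0.5 UMIs added, 3 of 8 members were past 2-fold higher (Hcn4, Cacna1g and Cacna2d2) and 1 lower (Cacna1h), beside 15.2% and 7.15% of all genes. Hcn4 and Cacna2d2 had 0 UMIs in the RA cells, with exact intervals of the ratio from 1.53 and 1.66 upward, and endothelial Cacna2d2 was no higher relative to cardiomyocytes than the cardiomyocyte markers. Cacna1g had 1 UMI there, with an interval of 0.809 to 189.8. Cacna1h was at 0.657 against 1.24 CPM, from 23 and 4 UMIs, and its interval, 0.182 to 2.11, included 1. Against GFP-negative endothelial cells 4 were past 2-fold higher (Hcn4, Cacna1g, Cacna2d2 and Cacnb2) and 1 lower (Cacna1c), beside 13.4% and 7.56%. All 4 had 0 UMIs in the GFP-negative cells, and their intervals started at 0.984, 0.791, 1.06 and 0.277, so none of them bounds the ratio at 2-fold. Cacna1c had a ratio of 0.505 (0.120 to 4.50). The place of Hcn4 in both counts also reads the sort.

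Cacna2d1 was the member spread over most classes. It was at 51.2 CPM in RA mural cells (43.4 to 60.0), 37.5 in GFP-negative mural cells (33.3 to 42.1), 27.3 and 24.2 in GFP-negative and RA fibroblasts, the cells that make connective tissue, and 13.2 in GFP-positive epicardial cells (10.9 to 15.8), which cover the heart. Cardiomyocyte markers in GFP-negative fibroblasts and mural cells stood at 0.298% and 0.367% of the cardiomyocyte level, and in the RA library at 0.682% and 0.712%. The epicardial cells also had Cacna1g at 5.60 CPM and Cacnb2 at 4.57 CPM, with cardiomyocyte markers at 1.29% of the cardiomyocyte level.

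Fibroblasts of the GFP-negative library had more of 3 of the 7 members measured than those of the RA library, and less of 0, beside 9.01% and 3.69% of all genes. Cacna1g was at 9.08 against 2.72 CPM, a ratio of 3.33 (2.15 to 5.40). Cacna1c was at 4.44 against 0.592 CPM, a ratio of 7.50 (3.09 to 23.7), and Cacnb2 at 3.35 against 0.711 CPM, a ratio of 4.72 (2.06 to 13.3). In RA fibroblasts Cacna1c and Cacnb2 had 5 and 6 UMIs. Both reached the minimum of 10 UMIs only through the GFP-negative cells. Cardiomyocyte markers went the other way, at 201 CPM in the GFP-negative and 482 CPM in the RA fibroblasts. In fibroblasts defined by clustering instead of gating, Cacna1c was at 4.21 against 0.450 CPM, Cacna1g at 8.32 against 2.52 and Cacnb2 at 3.37 against 0.810. Cacna2d1 was close, with a ratio of 1.13.

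In mural cells, 2 of 6 members were higher in the GFP-negative than in the RA library and 1 was lower, beside 8.03% and 5.20% of all genes. Cacna1c, the L-type pore of smooth muscle, was at 7.66 against 1.33 CPM, and Cacna1d at 0.779 against 4.32 CPM. The higher ones, Cacna1c and Cacna1g, had 4 and 3 UMIs in the RA cells, and Cacna1d had 6 in the GFP-negative cells. Each of these reached the minimum of 10 UMIs only through the library where it was higher. The border between RA mural cells and fibroblasts was not sharp: 214 cells were gated as mural and 40 clustered as such. In the clustered cells Cacna1c was at 9.59 CPM in the GFP-negative (7.31 to 12.3) and 8.10 CPM in the RA library (2.21 to 20.7, 4 UMIs), Cacna1d at 0 and 8.10 CPM (4 RA UMIs), and Cacna1g at 3.83 and 0 CPM. The gated cells also differed in kind: 207 of the 214 RA mural cells had more Rgs5, Kcnj8 and Abcc9 UMIs (pericyte genes) than Myh11, Cnn1 and Actg2 UMIs (smooth muscle genes), against 449 of the 661 GFP-negative ones. Among these pericyte-side cells Cacna1c was at 6.41 CPM in the GFP-negative (4.41 to 9.0) and 1.03 CPM in the RA library (0.212 to 3.01), and Cacna1d at 1.17 (0.428 to 2.54) and 4.12 CPM (2.13 to 7.19). The difference in Cacna1c was thus present in the gate and its pericyte side and not in the few clustered RA cells. All 40 clustered RA cells were also gated as mural, and they held all 4 Cacna1c UMIs of the gate. The other gated RA cells, which clustering did not call mural, held none. Most of the RA pericyte side is made of such cells, so its comparison with the GFP-negative pericyte side may not set like cells side by side. Within GFP-negative mural cells, Cacna1c was at 10.1 CPM (6.52 to 14.9) in the 204 cells on the smooth muscle side, an interval that overlapped that of the pericyte side. Cacna2d1 was at 29.0 CPM on the smooth muscle side (22.7 to 36.5) and 41.8 on the pericyte side (36.4 to 47.7).

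Hcn2 stood highest in neurons. The 11 gated neurons of the GFP-negative library had Hcn2 at 34.9 CPM (19.5 to 57.6, 15 UMIs in 7 cells), above its highest level of 1.41 CPM in the 16 larger sums. They also had Cacna2d1 at 46.6 CPM (20 UMIs). With 11 cells these values describe this small group.

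Other HCN and calcium channel genes were mostly too low to measure: of a list of 21, 6 were measured between GFP-positive and RA cardiomyocytes and 7 between GFP-positive and GFP-negative cardiomyocytes. Cacnb1, a β subunit best known from skeletal muscle, was at 11.4 against 5.11 CPM, from 38 and 5 UMIs. Cacna2d3, another α2δ subunit, was at 3.01 against 6.13 CPM, from 10 and 6 UMIs. Cacng1 was lower in GFP-positive than in GFP-negative cardiomyocytes, at 0 against 18.4 CPM. All 15 UMIs of Cacng1, a subunit of the skeletal muscle calcium channel, were in the Myog-positive cell, and the other 58 GFP-negative cardiomyocytes had 0. Cacnb3 was at 22.5 GFP-positive, 19.6 GFP-negative and 16.3 RA CPM in cardiomyocytes and at 65.6 and 63.1 CPM in GFP-negative and RA fibroblasts.

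A list of 41 genes that regulate these channels or shape pacemaking and calcium handling was read alongside, and 39 were in the files. In GFP-positive against RA cardiomyocytes 31 were measured, 6 were at least 2-fold higher and 0 lower, which is near the 17.7% of all genes, and their median log2 ratio was 0.33 against 0.14. The 6 were Gem, a small GTPase that restrains L-type current, Ahnak, which binds the β subunit, the adenylyl cyclases Adcy5 and Adcy6, which make cyclic AMP, the G protein subunit Gnao1, and Ryr2, the calcium release channel of the sarcoplasmic reticulum. Gem was at 51.1 against 15.3 CPM, a ratio of 3.34 (1.97 to 6.09). Ryr2 was at 336 against 128 CPM, a ratio of 2.64 (2.19 to 3.20). Against GFP-negative cardiomyocytes 5 of 31 were higher, Gem, Gnao1, Ryr2, Mrvi1 and the muscarinic receptor gene Chrm2, and 2 lower, Rem1 and Adcy1, which is near the 14.7% and 4.74% of all genes. Between GFP-negative and RA cardiomyocytes 1 of 31, Adcy1, was higher and 0 lower, beside 6.22% and 4.67% of all genes. In the cells with Isl1 or Tbx18, 1 of 30 was higher than in the other GFP-positive cardiomyocytes and 2 lower, beside 4.70% and 12.6% of all genes. The higher one was Pln, the phospholamban gene, at a ratio of 2.76 (2.53 to 3.01), and the lower ones were Gem, at 20.7 against 56.9 CPM, and Adcy6, at 18.8 against 49.0 CPM.

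The genes whose log level was most like each member over the 16 class-by-library sums were ranked among 5441 genes that reached 50 CPM in some sum; the sums share 3 libraries, and the correlations are descriptions. Nearest to Hcn4 were Chit1 (Pearson's r = 0.946), one of the His-bundle markers, Calca (0.925), another, and Hamp (0.899). Nearest to Cacna2d2 were Fcmr (0.977), Dbh (0.967), which makes noradrenaline, and Cmya5 (0.964). Cacna1c stood nearest to the muscle gene Hspb7 (0.958) and Cacnb2 to Ndrg4 (0.972). Cacna1g also had Ndrg4 among its nearest (0.891), after Usp13 (0.913). Nearest to Cacna2d1 was Me1 (0.959), to Cacna1d Ccng1 (0.847) and to Cacna1h Lrrn2 (0.805). The order rests on Pearson's r, and 7 of the 27 genes named for the 9 members were also named with Spearman's rho.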

How the data were processed

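The authors deposited, for each of 3 libraries, a matrix of whole-number UMI counts per gene and barcode; Cell Ranger and the mm9 build are named in the submitters' processing notes, and filters and versions are not given in the sources used here. The features hold 3 reporter sequences beside 27998 genes. Cells needed 500 genes and no more than 50% mitochondrial UMIs. Classes were gated on marker UMIs per 10000 UMIs, with at least 3 markers detected. The His-bundle-like gate needed 10 marker UMIs per 10000 and at least 3 markers, and the Nppa gate 10 Nppa UMIs per 10000. The gate for Isl1 and Tbx18 needed at least 2 UMIs in their sum, not scaled to depth. Thresholds were set after the distributions were seen, cells in more than 1 gate were left out, and no doublet caller was run. Counts were summed per class and library and given as CPM with exact 95% Poisson intervals, ratios with exact conditional binomial intervals and shares with Clopper-Pearson bounds; all cover counting error only. At 1 library per group no count model or test was fitted. Genes named outside the 9 are those of the fixed family and pathway lists past 2-fold, and for each member the 3 genes nearest by correlation. Values of some listed genes are not reported here. The members and lists were chosen with earlier results of these data known. The fold rule was tested on simulated data. Depth was 19975326 to 50416748 UMIs per library. Alternatives covered filters, gates, totals, added UMIs, fold, thinning and Leiden clusters (scanpy 1.11.5). Python 3.11.15, numpy 2.4.6, scipy 1.17.1, pandas 2.3.3 and matplotlib 3.10.9 were used.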

Additional observations from a re-analysis of the deposited data

Results flagged for a closer look

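Cacna1h went in opposite directions in 2 cell classes under the same comparison of the GFP-positive with the RA library. Its log2 ratio was 4.23 in cardiomyocytes, from 95 and 1 UMIs, and -1.05 in endothelial cells, from 23 and 4 UMIs. With 1 library per group the difference between the classes was not tested, and the interval of the endothelial ratio, 0.182 to 2.11, included 1.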

How the results depend on the processing

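No paired analysis was possible because each group had 1 library. Of 537 log2 ratios of single members recomputed under the alternatives, 533 stayed within their counting interval, 3 moved outside it and 1 reversed. Several of these intervals are wide or have no upper end, so staying within them is a weak check. A change of direction was looked for only in ratios past 2-fold in the main setting, so smaller ratios within their interval may have changed direction. With 5 UMIs added, the Hcn4 log2 ratio in cardiomyocytes was 0.87 against RA and 0.60 against GFP-negative cells. Both are below 2-fold, so Hcn4 then left the count of members past 2-fold in each of these comparisons. In Nppa-high cells the Hcn4 log2 ratio was 0.70, where it had been -2.40. The same added UMIs give a higher level in the sum with fewer UMIs in all. The Cacna2d2 ratio in Nppa-high cells was -2.11 without the cell with most UMIs. The count between GFP-negative and RA cardiomyocytes, 0, became 1 under cell filters of 1000 genes and 20% mitochondrial UMIs (Cacna1g), 1 with no minimum count (Cacna1h) and 1 at a fold of 1.5 (Cacna1g). The count in His-bundle-like cells, 1, became 2 under those cell filters, 2 with a looser gate, 2 with a stricter gate and 5 at a fold of 1.5; Cacna1d was among them each time. The count in Nppa-high cells, 4, became 0 with 5 UMIs added. Genes most like each member shared 7 of 27 with Spearman's rho. Leaving out the Myog-positive cell, requiring 10000 UMIs, leaving out single top cells and using Leiden classes were chosen after seeing the data, as was a limit of 1% haemoglobin, which removed no cardiomyocyte. The cause of the other shifts was not tested. The 59 and 70 cardiomyocytes outside the GFP-positive library set the width of most intervals.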
